A study of Mus musculus with 8 samples.

Results

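The transcripts described here are those of the BCL2 family, the caspases and their partners in apoptosis, pyroptosis and necroptosis, measured in whole liver. The members were chosen by name, as the rows of the deposited count table whose symbols belong to this machinery, a rule that uses no measured value. They number 34 of the 46517 genes in the table, and all 34 are protein coding. They comprise 4 pro-survival BCL2 genes, 3 effectors, 7 BH3-only genes, 7 caspases, 3 genes of the apoptosome and its mitochondrial factors, 4 genes of the inhibitor of apoptosis family with Cflar, and 6 genes of the death receptor, necroptosis and pyroptosis pathways.

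MøFoxO1-KO mice carry a floxed FoxO1 gene (FoxO1 loxP/loxP) and Lyz2-Cre, a recombinase driven by the lysozyme promoter of myeloid cells, and were compared with WT littermates that carry the same floxed gene without the recombinase. There were 4 male mice in each group on a C57BL/6 background. All 8 mice had been fed a NASH diet, which produces fatty and inflamed livers, from 6 weeks of age for 25 weeks, and were studied at 31 weeks of age after a 16-hour fast. Polyadenylated RNA of each liver was sequenced. The recombinase acts in myeloid cells throughout the body, whereas the RNA comes from all cells of the liver, most of it from hepatocytes. Albumin (Alb), the main hepatocyte secretory product, ranked 3 among the 13278 genes tested, with a mean of 45367.9 TPM (counts per exon length, scaled to the same total in every mouse).

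In the intrinsic pathway of apoptosis, BH3-only proteins sense damage or loss of growth signals and either neutralize the pro-survival BCL2 proteins or activate the effectors BAX and BAK. The effectors then perforate the outer mitochondrial membrane, cytochrome c escapes and assembles with APAF1 into the apoptosome, and caspase-9 is activated on it. In the extrinsic pathway, death receptors such as FAS engage FADD and caspase-8, which in hepatocytes depends on BID to reach the mitochondria. Necroptosis runs through RIPK1, RIPK3 and the pore former MLKL, and pyroptosis through inflammatory caspases that cut gasdermin D. Most of these proteins are controlled by cleavage, phosphorylation or binding, which transcript counts do not show. FoxO1 is a transcription factor that loses nuclear access when insulin activates Akt, and FOXO factors are known to transcribe the BH3-only genes Bcl2l11, which encodes BIM, and Bbc3, which encodes PUMA.

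Because the gene inactivated here encodes a FOXO factor, the promoters of the members were searched for the FOXO letters GTAAACA on both strands. RefSeq promoter windows of GRCm38.p6, from 250 bases before to 50 bases after the start, were matched for 31 of the 34 members and gave 44 windows. The letters were present in 4 of the 44 windows (9.09%), which belong to 3 genes, against 3.65% of the 32851 windows in the whole table. The 3 genes were Bcl2l11, Bbc3 and Casp4, and Casp4 has overlapping windows that share the same match. The 250 bases before the start are shown for these genes, 5′ to 3′ and in the direction of transcription, because they hold the letters of the factor that was inactivated. They lie at chr2:128125788-128126037 for Bcl2l11, at chr7:16310011-16310260 for Bbc3 and at chr9:5308599-5308848 for Casp4, each on the plus strand. Capitals mark the FOXO letters.
Bcl2l11: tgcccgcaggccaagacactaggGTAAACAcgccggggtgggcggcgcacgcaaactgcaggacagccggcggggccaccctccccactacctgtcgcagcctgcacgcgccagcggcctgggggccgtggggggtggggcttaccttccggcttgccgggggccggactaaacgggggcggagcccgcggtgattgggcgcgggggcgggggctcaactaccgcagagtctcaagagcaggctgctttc
Bbc3: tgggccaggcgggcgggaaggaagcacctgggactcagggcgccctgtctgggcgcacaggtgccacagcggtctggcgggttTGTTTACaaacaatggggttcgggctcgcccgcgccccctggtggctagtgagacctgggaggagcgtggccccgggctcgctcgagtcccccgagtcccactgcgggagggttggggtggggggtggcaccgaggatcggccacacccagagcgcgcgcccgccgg
Casp4: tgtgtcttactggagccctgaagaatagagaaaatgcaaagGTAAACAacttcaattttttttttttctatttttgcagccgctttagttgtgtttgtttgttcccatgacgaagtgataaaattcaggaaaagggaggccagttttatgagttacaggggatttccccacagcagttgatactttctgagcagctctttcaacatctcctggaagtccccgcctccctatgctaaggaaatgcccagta
The FOXO letters started at position -227 from the start of Bcl2l11, at -167 from 1 start of Bbc3, and at -209 from that of Casp4. In Bbc3 they are read on the opposite strand. This Bbc3 start lies inside the counted gene, which spans chr7:16309616-16318205. The Bbc3 window nearest the beginning of that span, chr7:16309333-16309582, does not hold the letters. Over the 250 bases before the start, the windows of the members had a median GC content of 58.4%, against 52.4% over all windows. A match describes letters in a window and does not show that a factor bound there.

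Total counts lay between 15253218 and 18025481 per mouse. Foxo1 itself (chr3 of mm10) overlapped between the groups, with counts of 422, 467, 328 and 461 in WT and of 448, 253, 438 and 259 in MøFoxO1-KO livers (log2 fold change -0.17, SE 0.18; edgeR, adjusted P = 0.686). Foxo1 in whole liver is a mixture of all cell types and does not check the deletion in myeloid cells. The most divergent libraries were WT replicate 23, which had the highest value of the 8 mice in 27.2% and the lowest in 25.5% of all genes tested, and MøFoxO1-KO replicate 29, which had the highest value in 15.5% of all genes and in 9 of the 34 members. Summed over 16 markers of macrophages and Kupffer cells, normalized counts lay between 4429.6 and 8067.4 in WT livers and between 5149.1 and 20533.8 in MøFoxO1-KO livers, with the highest sum in replicate 29. The log2 fold change was above 0 for 11 and below 0 for 5 of these 16 markers (median 0.68), and Trem2 was at 0 in MøFoxO1-KO replicate 26. Timd4 was higher in every MøFoxO1-KO liver than in any WT liver (log2 fold change 2.08; edgeR, adjusted P = 0.0968), as were 5.0% of all genes. Trem2 (-3.88; edgeR, adjusted P = 0.0983) and Gpnmb (-4.13; edgeR, adjusted P = 0.0382) were lower in every MøFoxO1-KO liver than in any WT liver, as were 4.71% of all genes. In MøFoxO1-KO livers both had few normalized counts, at most 6.64 for Trem2 and 7.59 for Gpnmb. In RNA of whole liver, fewer cells of a type and less RNA per cell cannot be told apart.

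The first question was whether the cell death machinery as a set differed between MøFoxO1-KO and WT livers. All 34 members passed the filter on low counts, the lowest count in any mouse being 4. None of the 34 was called at an adjusted P under 0.05 with an absolute log2 fold change over 1.5 in edgeR (quasi-likelihood F test, Benjamini-Hochberg adjustment), limits that 0.188% of all genes tested passed. Without the limit on the fold change, 0 of 34 members passed in edgeR, against 0.294% of all genes. DESeq2 passed 1 of 34 members at an adjusted P under 0.05, Gsdmd, against 4.42% of all genes, and none when the limit on the fold change was added, against 1.09% of all genes. The smallest adjusted P of any member in edgeR was 0.125.

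At an unadjusted P under 0.05, 3 members were lower in MøFoxO1-KO livers (Bcl2l2, Bbc3 and Bcl2l11), against 8.06% of all genes, and 2 were higher (Gsdmd and Bik), against 8.65% of all genes. In either direction this made 5 of 34 members, a share close to that of all genes, 16.7%. In normalized counts, the 4 MøFoxO1-KO values lay entirely below the WT values for Bcl2l2 (4.71% of all genes). They lay entirely above them for Gsdmd (5.0% of all genes). The other 32 members overlapped between the groups. Log2 fold changes (MøFoxO1-KO minus WT) ran from -0.59 for Mlkl to 0.91 for Pmaip1, with a median of 0.09, against -0.01 over all genes tested. They were above 0 for 22 members and below 0 for 12, where 51.7% of all genes were below 0. These signs hold for the scaling of normalized counts. In TPM, the summed level of every role group had a lower mean in MøFoxO1-KO livers. Bcl2l2, Bbc3, Bcl2l11, Casp8 and Ripk1 had a lower TPM in every MøFoxO1-KO liver than in any WT liver. The share of all genes separated in TPM was not computed. The 95% interval stayed inside 1 log2 unit in either direction for 26 members and inside 0.5 log2 units for 10 of them, while for 8 members it reached past 1 log2 unit.

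These unadjusted counts depended on single mice. Leaving out WT replicate 23, MøFoxO1-KO replicate 26 or MøFoxO1-KO replicate 27 left 1 member lower, leaving out WT replicate 22 or 24 gave 4 members higher, and leaving out WT replicate 23 or 25 or MøFoxO1-KO replicate 27 left 1 higher. Without WT replicate 23 and MøFoxO1-KO replicate 29 together, 4 members were higher. Bcl2l2 and Gsdmd had an unadjusted P under 0.05 in every fit.

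**Figure D1:**
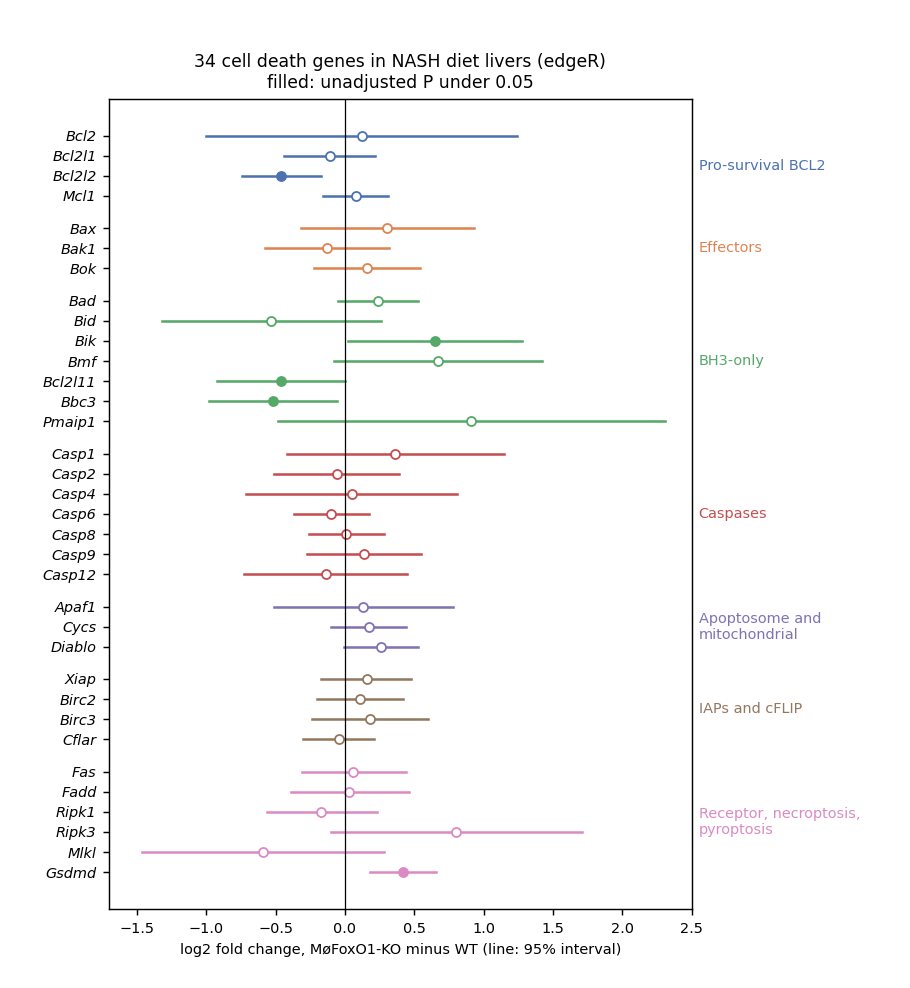
Log2 fold change (MøFoxO1-KO minus WT, horizontal axis) of each of the 34 members with its 95% interval, grouped by role; filled points have an unadjusted P under 0.05. Most intervals cross 0, and those of Bcl2l2 (-0.74 to -0.17) and Gsdmd (0.18 to 0.66) lie farthest from it in relation to their width.

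Per exon length, the members differed widely in level. Averaged over the 8 mice, Bax had the highest level at 93.5 TPM, followed by Mcl1 at 62.9 TPM and Cycs, which encodes cytochrome c, at 60.8 TPM. The ranges over mice of Bax (59.8 to 159 TPM), Mcl1 (50.7 to 75.5 TPM) and Cycs (53.2 to 68.1 TPM) overlapped. Gsdmd followed with 36.4 TPM, Bik with 28.3 TPM and Fas with 22.8 TPM. At the other end stood Bcl2, the founding member of the family, with 0.380 TPM and rank 12789 of 13278, Apaf1 with 0.618 TPM, Casp4 with 0.924 TPM and Pmaip1 with 0.987 TPM. TPM values depend on the share of all other transcripts, so the groups were tested on normalized counts. TPM ranges of the groups are given without a test.

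**Figure D2:**
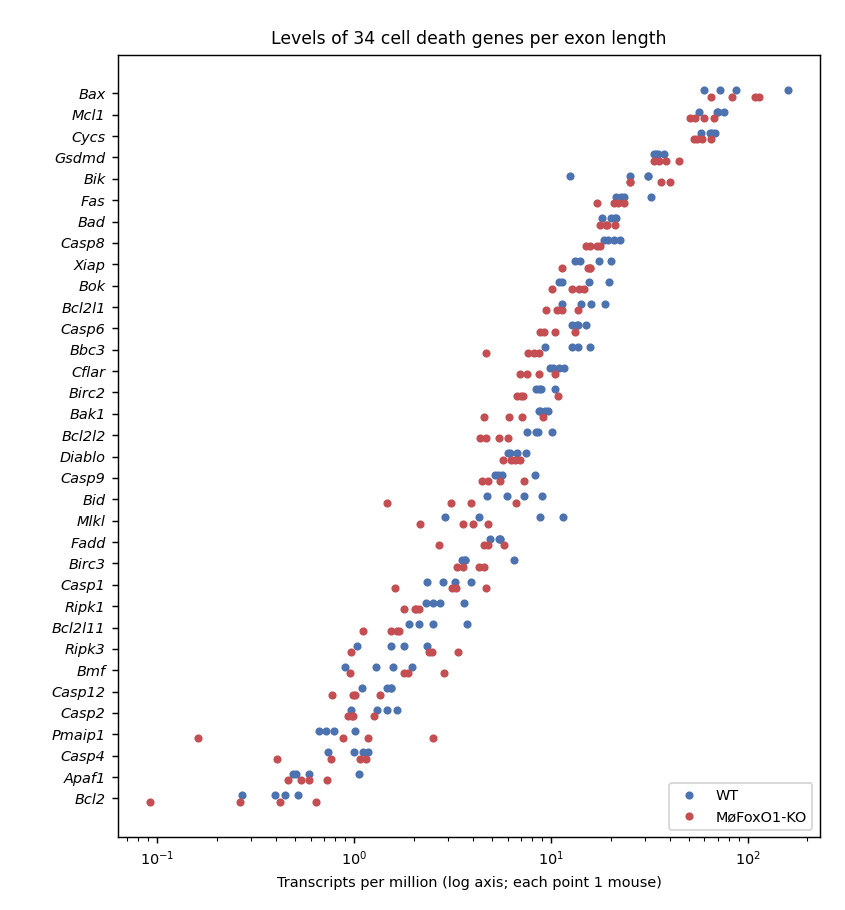
Levels of the 34 members in TPM (horizontal, log axis), each point 1 mouse, WT in blue and MøFoxO1-KO in red, ordered by the mean over the 8 mice. Bax, Mcl1 and Cycs stand at the top and Bcl2 at the bottom, and the WT and MøFoxO1-KO points of most genes overlap.

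Among pro-survival genes, Mcl1 stood far above the others and did not separate the groups, whereas Bcl2l2 was lower in all MøFoxO1-KO mice. MCL1, BCL-XL (from Bcl2l1) and BCL-W (from Bcl2l2) bind BH3-only proteins and effectors and hold them inactive, and hepatocytes are known to need MCL1 and BCL-XL to survive. Bcl2l2 (ENSMUSG00000089682) lies at chr14:54883377-54888234 on mm10. WT replicates 22 to 25 had 270, 340, 270 and 321 normalized Bcl2l2 counts, and MøFoxO1-KO replicates 26 to 29 had 245, 201, 217 and 212. Every WT liver was above every MøFoxO1-KO liver. The means were 300 ± 35.8 and 219 ± 19.1 (SD, n = 4 each; exact permutation test, P = 0.0286, the smallest that 4 against 4 mice allow). The log2 fold change was -0.46 with an SE of 0.13 (edgeR, unadjusted P = 0.00547, adjusted P = 0.149), and it lay between -0.52 and -0.39 when each mouse was left out in turn. Exons of Bcl2l2 share 13.3% of their bases with Gm20521, which had 0 counts in all 8 mice. These counts do not show how reads of the shared bases were assigned. Mcl1 had 1797.1 ± 126 normalized counts in WT and 1894.9 ± 108 in MøFoxO1-KO livers (log2 fold change 0.08, 95% interval -0.16 to 0.31). For Bcl2l1 the log2 fold change was -0.11 (-0.44 to 0.22). Bcl2 had few counts and a wide interval (0.12, -1.0 to 1.24), with 7.67 to 59.3 normalized counts in MøFoxO1-KO and 18.7 to 34.1 in WT livers, and its log2 fold change was -0.38 without MøFoxO1-KO replicate 29.

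Of the effectors, BAX and BAK form the mitochondrial pores and BOK is a related protein that acts without the usual restraint by BCL2. None of the 3 separated the groups. Normalized Bax counts (chr7:45461695-45466898) were 604, 392, 996 and 523 in WT and 513, 748, 885 and 960 in MøFoxO1-KO livers. WT replicate 24 had the highest Bax of all 8 mice, and the other WT livers were among the lower values. The means were 629 ± 260 and 777 ± 197 (SD, n = 4 each), with a log2 fold change of 0.30 and a 95% interval from -0.32 to 0.93 (edgeR, adjusted P = 0.628). Without WT replicate 24 the log2 fold change of Bax was 0.62 (unadjusted P = 0.0244), and without WT replicate 23 and MøFoxO1-KO replicate 29 together it was 0.02. Bak1 was nearly constant in WT livers, at 167 to 175 normalized counts, and ranged from 113 to 223 in MøFoxO1-KO livers (log2 fold change -0.13, and -0.35 without MøFoxO1-KO replicate 29). Its exons share 14.8% of their bases with the antisense gene Ggnbp1. Bok had a log2 fold change of 0.16 (-0.22 to 0.54). In TPM, the ratio of Bax to Bcl2l1 within a mouse ran from 3.20 to 11.2 in WT and from 5.74 to 11.5 in MøFoxO1-KO livers, a description without a test.

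The BH3-only genes showed the widest spread of fold changes of any role, with 4 above and 3 below 0. Bbc3 and Bcl2l11 were lower, and Bik higher, at an unadjusted P under 0.05, and none passed the adjustment. BIM and PUMA bind all pro-survival BCL2 proteins and are strong initiators of apoptosis. Bcl2l11 (chr2:128126038-128162547) had 137, 151, 217 and 127 normalized counts in WT and 123, 92.0, 110 and 134 in MøFoxO1-KO livers. The values overlapped, and WT replicate 24 stood above the rest. The means were 158 ± 40.4 and 115 ± 18.1 (SD, n = 4 each), a log2 fold change of -0.46 with an SE of 0.21 (edgeR, unadjusted P = 0.0491, adjusted P = 0.297). Without WT replicate 24 it was -0.27, and only 3 of the 8 fits that left out a mouse kept an unadjusted P under 0.05. In TPM the Bcl2l11 groups did not overlap, with 1.90 to 3.74 in WT and 1.10 to 1.68 in MøFoxO1-KO livers.

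Bbc3 (chr7:16309616-16318205) had 219, 240, 185 and 156 normalized counts in WT and 140, 96.8, 146 and 176 in MøFoxO1-KO livers. Only WT replicate 25 and MøFoxO1-KO replicate 29 crossed over. The means were 200 ± 36.9 and 140 ± 32.6 (SD, n = 4 each), a log2 fold change of -0.52 with an SE of 0.21 (edgeR, unadjusted P = 0.0304, adjusted P = 0.250), and 3 of the 8 fits that left out a mouse kept an unadjusted P under 0.05. In TPM the Bbc3 groups did not overlap, with 9.31 to 15.8 in WT and 4.64 to 8.63 in MøFoxO1-KO livers. Bcl2l11 and Bbc3, which have a promoter window with the FOXO letters printed above and others without them, had lower means in MøFoxO1-KO livers. Neither passed the adjustment, and a link between the letters and these values was not tested. The recombinase acts in myeloid cells, and the study reported no change of FoxO1 expression in hepatocytes, the source of most of this RNA. Casp4, the other gene with these letters, had 28.9 ± 5.57 and 29.9 ± 11.5 normalized counts (log2 fold change 0.05, 95% interval -0.71 to 0.81).

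Bik encodes a BH3-only protein of the endoplasmic reticulum. Bik (chr15:83526862-83544635) had 233, 88.5, 212 and 197 normalized counts in WT and 217, 354, 338 and 241 in MøFoxO1-KO livers. WT replicate 23 had by far the lowest value, and MøFoxO1-KO replicate 26 lay within the WT range. The means were 183 ± 64.6 and 287 ± 68.6 (SD, n = 4 each), a log2 fold change of 0.65 with an SE of 0.28 (edgeR, unadjusted P = 0.0445, adjusted P = 0.285). Without WT replicate 23 it was 0.42 (unadjusted P = 0.0539). Bad encodes a BH3-only protein that Akt phosphorylates and thereby silences. It had 322, 275, 309 and 352 normalized counts in WT and 322, 394, 344 and 426 in MøFoxO1-KO livers (315 ± 31.9 and 372 ± 47.4, SD, n = 4 each). The MøFoxO1-KO mean was higher but the groups overlapped (log2 fold change 0.24, 95% interval -0.05 to 0.53; edgeR, adjusted P = 0.393). Exons of Bad share 25.8% of their bases with the antisense gene Gpr137, and the libraries are not stated to keep the strand.

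Bid, the link from caspase-8 to the mitochondria, had 169, 241, 187 and 140 normalized counts in WT and 101, 143, 212 and 52.6 in MøFoxO1-KO livers. Bid had a log2 fold change of -0.53 (95% interval -1.32 to 0.26), which was -0.89 (unadjusted P = 0.0223) without MøFoxO1-KO replicate 28 and -0.28 without replicate 29. In Bid, 17.7% of the exon bases are shared with the antisense gene Bcl2l13. Bmf had a log2 fold change of 0.67 (-0.08 to 1.42), which was 0.42 without MøFoxO1-KO replicate 26 and 0.88 (unadjusted P = 0.0376) without WT replicate 22. Pmaip1, which encodes NOXA, an antagonist of MCL1, had the largest fold change of the 34 members and among the fewest counts, with 15, 16, 21 and 16 counts in WT and 22, 27, 4 and 60 in MøFoxO1-KO livers. The value of 0.91 on the log2 scale (95% interval -0.48 to 2.31) was 0.20 without MøFoxO1-KO replicate 29 and 1.31 (unadjusted P = 0.0138) without replicate 28.

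**Figure D3:**
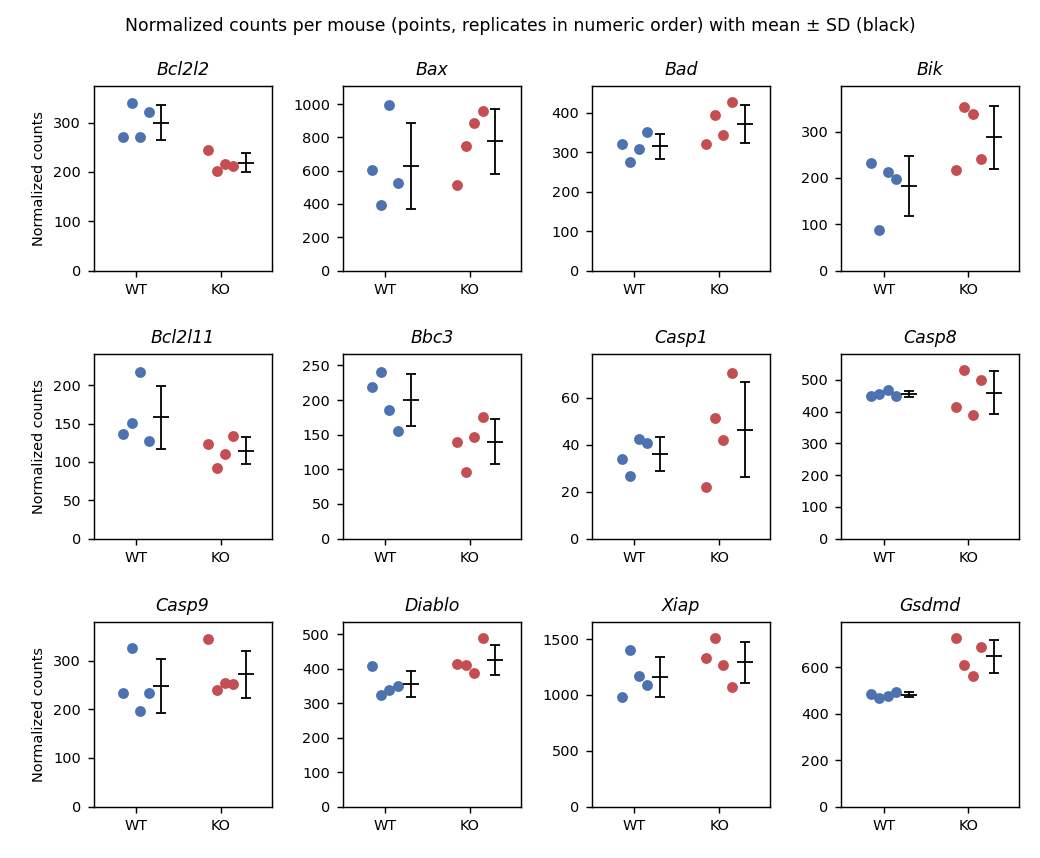
Normalized counts (vertical axis, from 0) of 12 members in each mouse, WT in blue and MøFoxO1-KO (KO) in red with replicates in numeric order, and mean ± SD in black. Bcl2l2 and Gsdmd are the 2 genes whose groups do not overlap, and those of the other genes do.

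The 7 caspases among the members showed no difference between the groups that passed any threshold, and all of their log2 fold changes lay between -0.14 and 0.36. Caspase-8, the initiator that death receptors activate, was the most abundant of them at 18.4 TPM. Casp8 (chr1:58795374-58847503) had 450, 455, 467 and 450 normalized counts in WT and 416, 532, 389 and 500 in MøFoxO1-KO livers. In normalized counts, WT livers were nearly identical, and MøFoxO1-KO livers lay on either side of them. The means were 455 ± 8.03 and 459 ± 67.6 (SD, n = 4 each), a log2 fold change of 0.01 with a 95% interval from -0.26 to 0.28, whose sign changed with the setting. In TPM the Casp8 groups did not overlap, with 18.6 to 22.3 in WT and 15.0 to 17.7 in MøFoxO1-KO livers. Casp9 (chr4:141793612-141815976), the initiator of the apoptosome, had 234, 326, 196 and 233 normalized counts in WT and 344, 239, 254 and 251 in MøFoxO1-KO livers. Apart from WT replicate 23 and MøFoxO1-KO replicate 26, which were high, all values lay between 196 and 254. Its log2 fold change was 0.14 (95% interval -0.27 to 0.55; edgeR, adjusted P = 0.744).

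Casp6, an executioner caspase, had a log2 fold change of -0.10 (-0.37 to 0.17), and Casp2 one of -0.06 (-0.51 to 0.39).

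Casp1, Casp4 and Casp12 are the inflammatory caspases and lie next to each other on chromosome 9, with gaps of 1.6 kb and 8.6 kb. Casp1 (chr9:5298517-5307265), which matures IL-1β and cuts gasdermin D, had 33.7, 26.6, 42.4 and 40.8 normalized counts in WT and 22.1, 51.4, 41.8 and 70.5 in MøFoxO1-KO livers. The lowest and the highest of the 8 values were both in MøFoxO1-KO livers. Casp1 had a log2 fold change of 0.36 (95% interval -0.42 to 1.15; edgeR, adjusted P = 0.647), 0.09 without MøFoxO1-KO replicate 29 and -0.03 without that mouse and WT replicate 23. Log2 fold changes were 0.05 for Casp4 and -0.14 for Casp12 (-0.73 to 0.45).

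The 3 genes of the apoptosome and its mitochondrial factors had log2 fold changes between 0.13 and 0.26, and none passed a threshold. Diablo, which encodes SMAC, a mitochondrial protein that relieves the block on caspases by XIAP, had 409, 323, 337 and 351 normalized counts in WT and 413, 411, 388 and 488 in MøFoxO1-KO livers. Only WT replicate 22 exceeded a MøFoxO1-KO liver. The means were 355 ± 38.1 and 425 ± 43.5 (SD, n = 4 each), a log2 fold change of 0.26 with a 95% interval from -0.01 to 0.53 (edgeR, unadjusted P = 0.0587, adjusted P = 0.324). Diablo (chr5:123509765-123525488) shares 20.9% of its exon bases with antisense genes, of which B3gnt4 had 0 counts in all mice. How reads of these shared bases were assigned is not shown by such counts. Cycs had 1687.5 ± 113 and 1898.9 ± 238 normalized counts (log2 fold change 0.17, -0.10 to 0.44), and Apaf1 had a log2 fold change of 0.13 (-0.51 to 0.78).

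The inhibitors of caspases did not separate the groups either. XIAP blocks active caspases, BIRC2 and BIRC3 (cIAP1 and cIAP2) attach ubiquitin to RIPK1 and its partners, and cFLIP, from Cflar, restrains caspase-8. Xiap (chrX:42059679-42109656) had 979, 1400.5, 1171.7 and 1088.1 normalized counts in WT and 1328.8, 1506.3, 1265.9 and 1066.7 in MøFoxO1-KO livers, with the lowest value in a WT and the highest in a MøFoxO1-KO mouse. The log2 fold change of Xiap was 0.16 (95% interval -0.17 to 0.48; edgeR, adjusted P = 0.636), and 0.34 (unadjusted P = 0.0261) without WT replicate 23 and MøFoxO1-KO replicate 29. Birc2 and Birc3, neighbours on chromosome 9 with a gap of 11.6 kb, had log2 fold changes of 0.11 (-0.20 to 0.42) and 0.18 (-0.24 to 0.60). Without WT replicate 24, Birc3 had one of 0.39 (unadjusted P = 0.0253). Cflar, which lies 36.5 kb from Casp8 on chromosome 1, had one of -0.04 (-0.30 to 0.21). Within a mouse, the TPM ratio of Cflar to Casp8 ran from 0.494 to 0.558 in WT and from 0.405 to 0.700 in MøFoxO1-KO livers, a description without a test.

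In the death receptor, necroptosis and pyroptosis pathways, normalized Gsdmd counts were higher in every MøFoxO1-KO liver. Fas, Fadd and Ripk1 had fold changes close to 0. Gasdermin D is the protein whose cut amino-terminal fragment opens the pores of pyroptosis. Gsdmd (ENSMUSG00000022575) lies at chr15:75862339-75867404 and its exons overlap no other gene. WT replicates 22 to 25 had 485, 468, 477 and 495 normalized Gsdmd counts, and MøFoxO1-KO replicates 26 to 29 had 724, 610, 563 and 687. WT values lay within a narrow band, and the lowest MøFoxO1-KO value exceeded the highest of them. The means were 481 ± 11.4 and 646 ± 73.0 (SD, n = 4 each; exact permutation test, P = 0.0286, the smallest possible). The log2 fold change was 0.42 with an SE of 0.11 (edgeR, unadjusted P = 0.00275, adjusted P = 0.125), and leaving out each mouse in turn gave 0.36 to 0.50. Its adjusted P was 0.0224 in DESeq2 and reached 0.340 in the other alternatives. In TPM the Gsdmd groups overlapped, with 33.3 to 37.2 in WT and 33.1 to 44.7 in MøFoxO1-KO livers. The summed macrophage markers were 6895.4 in MøFoxO1-KO replicate 26 and 5149.1 in replicate 28, within the WT range of 4429.6 to 8067.4, and both of these livers had more Gsdmd than any WT liver. The part of macrophage content in the Gsdmd values was not tested.

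Ripk3, the kinase that activates MLKL, had 28.1, 22.6, 33.2 and 16.9 normalized counts in WT and 17.3, 49.0, 43.7 and 67.2 in MøFoxO1-KO livers. Of the MøFoxO1-KO livers, 3 exceeded every WT liver, and replicate 26 was among the lowest. Its log2 fold change was 0.80 (95% interval -0.10 to 1.71; edgeR, adjusted P = 0.358), 0.53 without MøFoxO1-KO replicate 29 and 1.07 (unadjusted P = 0.0089) without replicate 26. Mlkl, the pore former, had 78.7, 201, 146 and 55.7 normalized counts in WT and 74.8, 51.4, 82.6 and 111 in MøFoxO1-KO livers. WT replicates 23 and 24 held the highest values, and the log2 fold change was -0.59 (95% interval -1.46 to 0.28; edgeR, adjusted P = 0.486). Without WT replicate 23 it was -0.23, and without WT replicate 25 it was -0.83 (unadjusted P = 0.0408). Log2 fold changes were 0.06 (-0.31 to 0.44) for Fas, 0.03 (-0.39 to 0.46) for Fadd and -0.17 (-0.56 to 0.23) for Ripk1. In TPM the Ripk1 groups did not overlap, with 2.31 to 3.59 in WT and 1.78 to 2.14 in MøFoxO1-KO livers. Exons of Ripk1 share 34.3% of their bases with Gm17084, a processed pseudogene with 0 to 3 counts per mouse, which does not show how shared reads were assigned.

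Among 60 further cell death genes of a wider list, 49 passed the filter on low counts, and none passed an adjusted P under 0.05 in edgeR with all 8 mice. Log2 fold changes were above 0 for 29 and below 0 for 20, with a median of 0.04. At an unadjusted P under 0.05, 3 were lower (Parp1, Bcl2l13 and Tnfrsf10b) and 3 higher (Endog, Naip5 and Il1b), against 8.06 and 8.65% of all genes. DESeq2 passed 2 of the 49 at an adjusted P under 0.05, Endog and Il1b, a share close to the 4.42% of all genes. The 11 genes that did not pass the filter were Casp14, Bcl2a1a, Bcl2a1b, Bcl2a1d, Bcl2l10, Bcl2l14, Hrk, Fasl, Tnf, Moap1 and Slc7a11.

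Endog encodes endonuclease G, a mitochondrial nuclease that can cut nuclear DNA when it is released. It had 543, 380, 478 and 354 normalized counts in WT and 766, 571, 1049.6 and 700 in MøFoxO1-KO livers, and every MøFoxO1-KO liver was above every WT liver. The means were 439 ± 87.7 and 772 ± 202 (SD, n = 4 each; exact permutation test, P = 0.0286, the smallest possible), a log2 fold change of 0.81 with an SE of 0.20 (edgeR, unadjusted P = 0.00228, adjusted P = 0.121; DESeq2, adjusted P = 0.0103). Endog (chr2:30171493-30174069) shares 35.7% of its exon bases with the antisense gene Spout1, which had a log2 fold change of 0.28. In TPM the Endog groups overlapped, with 39.9 to 64.0 in WT and 51.7 to 110 in MøFoxO1-KO livers. Parp1 encodes the DNA repair enzyme that executioner caspases cut. It had 455, 642, 477 and 436 normalized counts in WT and 430, 383, 366 and 362 in MøFoxO1-KO livers, without overlap but with a gap of few counts (log2 fold change -0.38, and -0.24 without WT replicate 23; edgeR, unadjusted P = 0.0218, adjusted P = 0.225). Bcl2l13 had a log2 fold change of -0.49 (edgeR, adjusted P = 0.260), and -0.23 without WT replicate 23, which had 813 normalized counts against 492, 417 and 455 in the other WT livers and 441, 371, 371 and 364 in MøFoxO1-KO livers. Tnfrsf10b, a death receptor for TRAIL, had 35.6, 42.3, 35.1 and 26.9 normalized counts in WT and 7.67, 5.97, 34.2 and 11.2 in MøFoxO1-KO livers. Only MøFoxO1-KO replicate 28 lay within the WT range. The log2 fold change of Tnfrsf10b was -1.22 (edgeR, adjusted P = 0.264), and without that mouse it was -2.05 (edgeR, adjusted P = 0.0441).

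Il1b, Pycard and Naip5 of inflammasome signaling were highest in the same MøFoxO1-KO mice that had the most macrophage marker counts. Il1b, which encodes the cytokine that caspase-1 matures, had 14.1, 14.8, 48.0 and 40.8 normalized counts in WT and 45.1, 159, 28.5 and 235 in MøFoxO1-KO livers. MøFoxO1-KO replicates 27 and 29, which had the highest Il1b, also had the highest sums of the 16 macrophage markers (11824.4 and 20533.8). Single markers differed. Of the 16, 12 were highest in replicate 29, and 4 (Lyz2, Trem2, Gpnmb and Ccr2) in WT replicate 24. In replicate 27, Lyz2 had 99.1 normalized counts, the lowest of the 8 mice. The log2 fold change of Il1b was 1.98 (95% interval 0.47 to 3.49; edgeR, unadjusted P = 0.0152, adjusted P = 0.204) and 1.38 without replicate 29. Pycard, the adaptor ASC of the inflammasome, had 14.1, 17.7, 39.7 and 22.9 normalized counts in WT and 34.5, 62.1, 13.3 and 140 in MøFoxO1-KO livers (log2 fold change 1.39; edgeR, adjusted P = 0.304), again highest in replicates 29 and 27. Without replicate 29 it was 0.62. Naip5, a sensor of bacterial flagellin, had 67.4, 22.6, 52.6 and 72.7 normalized counts in WT and 47.0, 154, 102 and 151 in MøFoxO1-KO livers (log2 fold change 1.07; edgeR, adjusted P = 0.250), and 4 of the 8 fits that left out a mouse kept an unadjusted P under 0.05. Casp1 and Ripk3 were also highest in replicate 29 and next in replicate 27, whereas Gsdmd was highest in replicate 26. The part of macrophage content in these values was not tested.

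**Figure D4:**
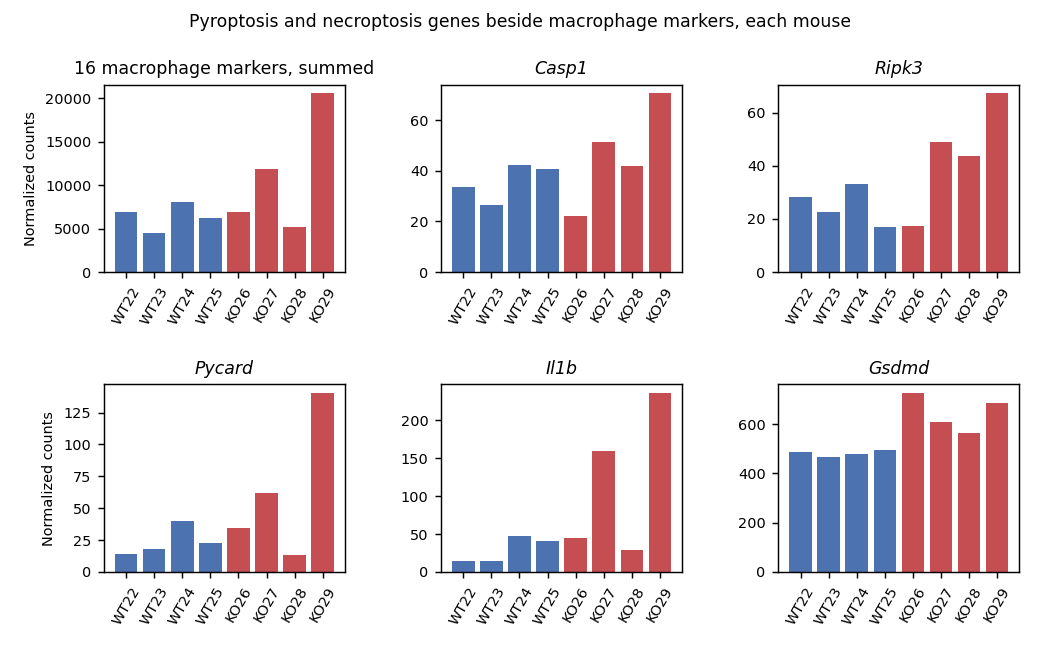
Normalized counts (vertical axes, from 0) in each of the 8 mice for the sum of 16 macrophage markers and for Casp1, Ripk3, Pycard, Il1b and Gsdmd; WT in blue, MøFoxO1-KO (KO) in red. MøFoxO1-KO replicates 29 and 27 are the highest in every panel but that of Gsdmd, where all 4 MøFoxO1-KO mice, from 563 to 724, stand above the WT mice.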

How the data were processed

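Gene counts of 8 livers (mouse; WT, n = 4, and MøFoxO1-KO, n = 4) were used. The authors deposited raw read counts per gene with exon coordinates and length; per the labels, reads were aligned to mm10 with STAR and counted with featureCounts, whose versions and strand setting are not given in the sources used here. Symbols came from GENCODE M21. Counts were filtered with filterByExpr (minimum count 10, minimum total 15; 13278 genes), scaled by TMM, and compared in edgeR 4.0.16 (R 4.3.3) by its quasi-likelihood F test, with P values adjusted by the Benjamini-Hochberg method over all genes tested. Normalized counts are counts scaled to the mean effective library size. Standard errors were obtained from the log2 fold change and F statistic, and 95% intervals from the t distribution. Permutation tests were exact and two-sided (70 arrangements). TPM was computed here from counts and the deposited exon length. The limits of the call (0.05 and 1.5) were taken from the study's text, with the latter read as absolute. Fits were tested on simulated data.

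The members and lists were chosen with earlier results of these data known. Genes were given mouse by mouse where the unadjusted P was under 0.05, where groups did not overlap, where the P was the smallest of a role group, or where the study measured the transcript by another assay (Bax, Bad, Casp8 and Casp9); of the wider list, those with an unadjusted P under 0.05. Some genes of the wider list are counted but not reported singly here. Bcl2, Bak1, Bid, Pmaip1, Ripk3, Mlkl and Pycard were given in addition, after their values were seen. Alternatives were DESeq2 1.42.0, its size factors, upper-quartile scaling, limma-voom (limma 3.58.1), the robust option, other filters and leaving out each mouse. Promoter windows came from RefSeq (GRCm38.p6). Whether mice came from separate litters or cages was not given, so P values measure only the spread between these mice, and the number of counts limits the precision for genes with few of them.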

Additional observations from a re-analysis of the deposited data

Results flagged for a closer look

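The 34 members and the genes of the wider list that the naming rule chose gave 82 sets of 4 mice, 1 set per gene and genotype. Of these sets, 4 held a mouse far from the other 3, and chance gives about 1 in 20. Casp4 had 20.7 normalized counts in WT replicate 23, against 30.9 to 32.8 in the other WT livers. Casp9 had 344 normalized counts in MøFoxO1-KO replicate 26, against 239 to 254 in the other MøFoxO1-KO livers. Birc3 had 234 normalized counts in WT replicate 24, against 138 to 152 in the other WT livers. Bcl2l13 had 441 normalized counts in MøFoxO1-KO replicate 26, against 364 to 371 in the other MøFoxO1-KO livers.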

How the results depend on the processing

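No paired analysis was possible because the groups share no replicate number. The count of called members was 0 in every alternative, except that DESeq2 without the limit on the fold change gave 1 (Gsdmd). The number of members lower at an unadjusted P under 0.05 was 3, and lay between 1 and 4 when each mouse was left out. The number higher was 2, lay between 1 and 4 when each mouse was left out, and was 4 without WT replicate 23 and MøFoxO1-KO replicate 29, an alternative chosen after seeing the data. The median log2 fold change of 0.09 was 0.03 in that alternative, and between 0.00 (MøFoxO1-KO replicate 29) and 0.16 (MøFoxO1-KO replicate 27) when each mouse was left out. Over all 16 alternatives, 22 of the 34 members kept the sign of their log2 fold change and 12 did not. Casp8 changed sign with limma-voom (-0.00), with no filter (-0.00), without WT replicate 23 and MøFoxO1-KO replicate 29 (-0.03), and in some of the fits that left out a mouse, which gave -0.06 (MøFoxO1-KO replicate 27) to 0.10. Casp1 changed sign without the same pair of mice (-0.03), while leaving out each mouse gave 0.09 to 0.60. The cause was not tested. Low counts, as for Bcl2, Casp4 and Pmaip1, left wide intervals in which small differences were not detectable at this depth.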
